A study of Mus musculus with 7 samples.

Results

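Immediate early genes encode transcription factors and signalling regulators that cells switch on within minutes of a stimulus, before any new protein has to be made. In mouse islet cells, the open chromatin of 10 such genes was followed, namely Fos, Fosb, Fosl2, Jun, Junb, Egr1, Atf3, Npas4, Nr4a1 and Ier2. Each was given a window of the gene body plus 50 kb on each side, and every peak overlapping a window was taken, whatever its strength. The 10 windows, none of which overlapped another, held 829 of the 1190565 distinct peaks of 7 libraries. By library these were 117 and 111 peaks in alpha cells, 198, 74 and 104 in beta cells, and 117 and 108 in delta cells.

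The libraries were made by ATAC-Seq, in which a transposase cuts and tags DNA that is not wrapped tightly in nucleosomes. There were 2 alpha, 3 beta and 2 delta libraries of healthy mice. All animals carried mIns1-H2b-mCherry, which marks beta cells red from the insulin promoter, and Rosa-LSL-YFP, which turns yellow only after Cre has acted, so the alpha and delta cells sorted were those with a history of Gcg-Cre or Sst-Cre activity. Mice were pooled by sex before the sort, no stimulus was named in the labels, the age was not given in the sources used here, and neither was the Cre line from which each beta library was sorted.

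The 7 lists differed greatly in length and strength. Distinct peaks numbered 131151 and 111961 in alpha 1 and alpha 2, 518503, 91089 and 103935 in beta 1 to beta 3, and 158066 and 75860 in delta 1 and delta 2. The beta 1 list stood apart, since it was the longest and yet had 25903 peaks at a -log10 q of 2 or more, the fewest of all, whereas these made up 29.8% to 54.9% of each of the other 6 lists. The names of the 3 beta lists carry another cell type than the labels, which were followed here. The names of the lists also give a lane number, which the labels do not. It was 6 for alpha 1, alpha 2 and beta 1 and 7 for the other 4. By these names, lane and cell type cannot be told apart between alpha and delta cells. The defining hormone genes followed the labels only in part. Gcg, which encodes glucagon, had a start-site peak in both alpha libraries at ranks 7770 and 9453, where rank 1 is the peak of lowest p in its own list. Delta 2 had one at 40109 and the beta libraries had none. For Ins1, an insulin gene, the highest ranks were in beta 1 at 6974 and beta 3 at 13851, whereas beta 2 held 53088, the alpha libraries 103285 and 52261, and the delta libraries 35979 and 65284. Ins2, the other insulin gene, had weak peaks in beta 1 at 74481, beta 3 at 56848 and delta 2 at 49165, each among many peaks tied in strength, and none in beta 2, alpha 1, alpha 2 or delta 1. Sst, the somatostatin gene, had a peak in delta 1 at 130986 and delta 2 at 64934, but also in beta 1 at 23128. Among markers of other cells of the pancreas, no library had a start-site peak at more than 2 of 5 acinar genes, and Cpa1 and Cela2a had none in any library. Of 3 stellate cell genes, 3 and 2 had such a peak in alpha, 2, 1 and 0 in beta, and 2 and 2 in delta libraries, and of 3 immune and 3 endothelial genes at most 2 and 1 in any library. Of 3 duct genes, Cftr had a peak in all 7 libraries, at ranks from 27286 to 115668, Sox9 had one in delta 2 and Krt19 had none. The part of other cells in the results was not tested.

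On the mm10 build, Fos spans chr12:85473890-85477273 on the plus strand and Fosb chr7:19302696-19310051 on the minus strand. Fosl2 spans chr5:32135801-32157842 (plus), Jun chr4:95049034-95052222 (minus), Junb chr8:84974484-84978718 (minus) and Ier2 chr8:84661331-84662852 (minus). Atf3 spans chr1:191170296-191218039 (minus), Npas4 chr19:4984355-4990316 (minus), Nr4a1 chr15:101254269-101274795 (plus) and Egr1 chr18:34859823-34864984 (plus). The windows of Fos, Fosl2 and Jun held no other protein-coding gene, whereas those of Junb and Fosb held 9 and 7, those of Npas4 and Ier2 5 each, that of Nr4a1 4, that of Egr1 3 and that of Atf3 1.

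The products fall into a few families. Fos, Fosb and Fosl2 form AP-1 dimers with Jun and Junb, Atf3 is a related leucine zipper factor, Egr1 is a zinc finger factor, Npas4 a neuronal activity-dependent factor, Nr4a1 an orphan nuclear receptor, and Ier2 a nuclear protein of less defined role. Their classical control runs through calcium, cyclic AMP and MAP kinase signals, which reach the serum response factor at CArG boxes and CREB at cyclic AMP response elements. In beta cells, glucose and agents that raise cyclic AMP are known inducers. Open chromatin at such a gene is a state of its DNA and does not measure its transcript.

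The sequences below are shown because they lie at start sites and regions that the results describe. TGACG (the core of the cyclic AMP response element) and CArG boxes are in capitals on either strand. The first 3 are from the plus strand of the GRCm38.p6 genome, the same build as mm10. They are 300 bases of the Fos start-site peak upstream of the start (chr12:85473540-85473839), the central 300 bases of the strongest region of the Fos window, 12.2 kb downstream of the start (chr12:85485924-85486223), and those of a Fos region seen in beta and delta but not in alpha libraries (chr12:85441669-85441968). The last 3 are 250 bases before the RefSeq start site on the gene's strand, for Nr4a1 (chr15:101266596-101266845), Atf3 (chr1:191183334-191183583) and Npas4 (chr19:4989972-4990221).
Fos start-site peak: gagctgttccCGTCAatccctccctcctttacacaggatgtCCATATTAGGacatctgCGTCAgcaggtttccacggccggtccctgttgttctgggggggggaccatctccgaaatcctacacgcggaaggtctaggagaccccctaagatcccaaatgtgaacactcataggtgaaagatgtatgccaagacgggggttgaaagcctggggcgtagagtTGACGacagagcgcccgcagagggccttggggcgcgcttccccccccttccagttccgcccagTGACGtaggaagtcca
Fos region at 12.2 kb: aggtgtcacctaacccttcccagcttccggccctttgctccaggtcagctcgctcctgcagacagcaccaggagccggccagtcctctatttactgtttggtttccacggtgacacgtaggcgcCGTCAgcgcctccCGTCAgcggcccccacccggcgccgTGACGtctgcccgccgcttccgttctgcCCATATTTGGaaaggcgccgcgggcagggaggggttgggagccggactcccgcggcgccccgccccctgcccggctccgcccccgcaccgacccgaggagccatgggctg
Fos region at -32.1 kb: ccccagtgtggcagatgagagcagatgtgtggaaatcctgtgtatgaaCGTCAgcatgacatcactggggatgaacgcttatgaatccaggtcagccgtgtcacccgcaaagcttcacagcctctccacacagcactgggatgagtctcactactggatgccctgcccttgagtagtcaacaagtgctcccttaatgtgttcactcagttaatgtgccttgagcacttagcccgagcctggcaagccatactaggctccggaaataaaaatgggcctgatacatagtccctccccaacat
Nr4a1 promoter: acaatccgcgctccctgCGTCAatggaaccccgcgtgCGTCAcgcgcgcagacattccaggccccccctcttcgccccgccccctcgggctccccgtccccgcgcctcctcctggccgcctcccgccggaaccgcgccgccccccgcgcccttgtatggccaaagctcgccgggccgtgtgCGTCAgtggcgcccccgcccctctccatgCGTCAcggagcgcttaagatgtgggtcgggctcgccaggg
Atf3 promoter: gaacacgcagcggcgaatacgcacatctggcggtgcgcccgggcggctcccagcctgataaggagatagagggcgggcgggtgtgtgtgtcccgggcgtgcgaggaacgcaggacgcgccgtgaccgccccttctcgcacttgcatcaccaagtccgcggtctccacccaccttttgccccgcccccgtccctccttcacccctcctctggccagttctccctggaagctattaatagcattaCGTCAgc
Npas4 promoter: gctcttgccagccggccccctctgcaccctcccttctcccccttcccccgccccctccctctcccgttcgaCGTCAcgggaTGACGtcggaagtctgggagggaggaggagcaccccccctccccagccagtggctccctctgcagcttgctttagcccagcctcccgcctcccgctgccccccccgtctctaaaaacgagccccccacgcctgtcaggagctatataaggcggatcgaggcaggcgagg

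The printed 300 bases of the Fos peak, a stretch set for this gene alone, held 1 CArG box, at -309 to -300 from the 5′ end. They held 4 TGACG matches, at -340 to -336, -292 to -288, -129 to -125 and -66 to -62. The central 300 bases of this region, the stretch used for all regions below, held 2 TGACG matches and 0 CArG boxes. RefSeq promoters were available for 8 of the 10 genes, the others being Egr1 and Ier2. In the 250 bases before the start, TGACG was found in 6 of these 8, namely Fos, Fosb, Junb, Atf3, Npas4 and Nr4a1, against 17.8% of 32851 RefSeq promoters and 31.4% of the 8174 that had a peak in all 7 libraries. Nr4a1 held 4 matches, at -233 to -229, -213 to -209, -69 to -65 and -40 to -36, the most of the 8. The full palindrome TGACGTCA, which contains TGACG, was in 0 of the 8 (1.55% of all promoters), as were the AP-1 motif TGANTCA (6.75%) and the CArG box (1.47%), so the CArG box of Fos lay just outside the 250 bases. A match is only a match of letters.

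Peaks at the start sites were the rule. Within 1 kb of the gene's 5′ end in GENCODE, 9 of the 10 genes had a peak in each of the alpha and delta libraries, 8 in beta 2 and beta 3, and 6 in beta 1. Among all 21938 protein-coding genes the corresponding shares were 60.5% in alpha 1 and 62.0% in alpha 2, 69.7%, 48.9% and 56.8% in beta 1 to beta 3, and 62.3% and 56.3% in delta 1 and delta 2. In all 7 libraries at once, 5 of the 10 had such a peak (Fosb, Fosl2, Jun, Egr1 and Nr4a1), against 41.5% of genes. With any annotated transcript start admitted this became 7 of 10, through Junb and Atf3, against 46.6% of genes, and without beta 1 it was 8 of 10 against 47.2%. Npas4 and Ier2 were missing from each of these counts.

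**Figure D1:**
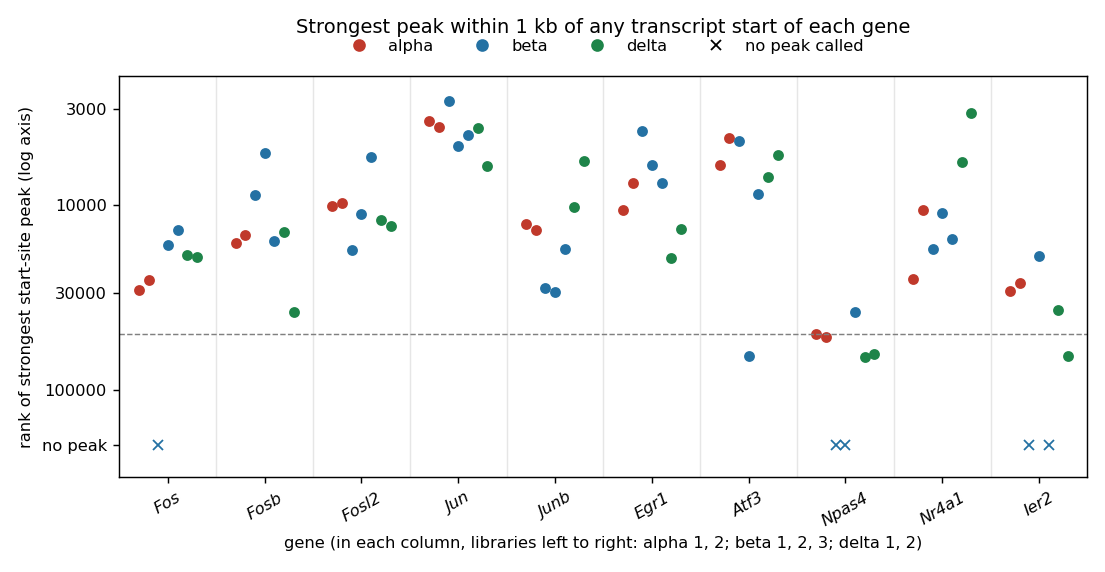
Rank of the strongest peak within 1 kb of any annotated transcript start (log axis, high ranks upward) for each of the 10 genes, with 1 point for each of the 7 libraries, crosses for no peak and a dashed line at rank 50000. Jun sits between 2709 and 6126 in every library, while all 5 crosses are in beta libraries, at Fos, Npas4 and Ier2.

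Jun, which encodes the central partner of AP-1, had the strongest start site by median rank, although in delta 2 those of Nr4a1, Atf3 and Junb were ahead of it. Its peak ranked 3488 and 3778 in alpha cells, 2709, 4760 and 4178 in beta cells, and 3803 and 6126 in delta cells. By rank both alpha peaks were ahead of both delta peaks, with alpha 2 and delta 1 nearly equal, and the beta values overlapped the others. By -log10 q delta 1 was instead the strongest, at 35.3 against 28.5 and 32.5 in the alpha libraries. Fosl2, a Fos-related partner of Jun, ranked 10153 and 9755 in alpha, 17593, 11121 and 5439 in beta, and 12075 and 12888 in delta libraries. The beta libraries enclosed the values of both other cell types. Neither gene differed between cell types by the exact permutation test of the log10 rank over the 210 assignments of libraries (p = 0.619 and p = 0.810).

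Fos had a weaker start-site peak that 6 of 7 libraries shared. It ranked 28799 and 25404 in alpha cells, 16512 and 13616 in beta 2 and beta 3, and 18729 and 19031 in delta cells, and beta 1 had none. By rank the alpha peaks came last of those present. By -log10 q the weakest was instead beta 2, at 3.82 against 4.20 and 5.09 in the alpha libraries. With the missing peak set to the limit of 50000, the cell types did not separate (exact permutation p = 0.819, Benjamini-Hochberg adjusted p = 1 over 14924 genes). Fosb ranked 23508 and 16769 in alpha, 8799, 5206 and 15621 in beta, and 13996 and 41135 in delta libraries, so that delta 1 fell among the beta values and delta 2 was the weakest (exact permutation p = 0.248). At the 5′ end of Junb the ranks were 27694 and 17221 in alpha, 32059 and 17188 in beta 2 and beta 3, and 24712 and 28961 in delta libraries, with none in beta 1. At an internal start of Junb in GENCODE, a region beginning 1857 bases downstream was found in every library, at 12690 and 13619 in alpha, 28271, 29707 and 19178 in beta, and 10223 and 5765 in delta libraries. Here all 3 beta peaks were weaker than all alpha and delta peaks.

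Egr1, a zinc finger factor induced by serum, growth factors and glucose, was the one member with an unadjusted p of at most 0.05. The peak ranked 10567 and 7590 in alpha cells, 3953, 6044 and 7566 in beta cells, and 19286 and 13477 in delta cells. The 3 groups did not overlap by rank, although alpha 2 and beta 3 nearly met. Ordered by -log10 q, both alpha peaks were instead ahead of all beta peaks, with alpha 1 at 12.8 and beta 3 at 12.3. Beta and delta cells then overlapped, with beta 2 at 9.03 and delta 2 at 9.61. On the scale of the geometric mean rank alpha cells stood at 8956, beta cells at 5654 and delta cells at 16122 (exact permutation p = 0.0286, adjusted p = 0.479). Across all genes tested, 9.21% had an unadjusted p of at most 0.05, so 1 of the 9 members tested is close to that background. No gene of the genome passed an adjusted p of 0.05 (1374 genes at an unadjusted p of at most 0.05), and the smallest adjusted p was 0.435. The smallest p that 7 libraries allow is 0.00952. The unadjusted p of Egr1 rose above 0.05 when any beta library, alpha 2 or delta 1 was left out. Without a beta library, 0.0667 was the smallest p possible. The region began 530 bases downstream of the annotated 5′ end, over an internal transcript start, and its central 300 bases held 3 CArG boxes, which 1.57% of all regions held at least once.

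Atf3, a stress-induced factor, and Nr4a1 showed open chromatin at starts within the annotated gene body. At the 5′ end of the longest Atf3 transcript only beta 1 had a peak, at rank 507401, near the end of its list. At the internal RefSeq start, whose promoter is printed above, a region (chr1:191183023-191183758) was called in all 7 libraries. It ranked 6068 and 4307 in alpha, 4463, 68176 and 8732 in beta, and 7032 and 5333 in delta libraries, so that beta 2 alone was weak. Nr4a1 had peaks at both starts in all libraries. The upstream one ranked 36930 and 17254 in alpha, 269106, 42068 and 17673 in beta, and 20169 and 33528 in delta libraries. The RefSeq start (chr15:101266448-101267028) ranked 25135 and 10668 in alpha, 17180, 10964 and 15239 in beta, and 5859 and 3164 in delta libraries, thus ahead of the upstream start in every library, with both delta peaks the strongest.

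With any transcript start admitted, Npas4 and Ier2 had the weakest start sites by median rank and the fewest libraries with a peak. For Npas4 the ranks were 50100 and 51957 in alpha, 37778 in beta 3, and 66959 and 64058 in delta libraries, and beta 1 and beta 2 had no peak. Of these 5 peaks, 2 reached a -log10 q of 2, those of alpha 1 and beta 3. Over the RefSeq promoter itself 3 libraries had a peak, namely alpha 2, beta 3 and delta 1. For Ier2 the values were 29128 and 26364 in alpha, 18896 in beta 2, and 36813 and 65448 in delta libraries, with no peak in beta 1 and beta 3. The region over the Ier2 start itself (chr8:84662727-84663048) was called in both alpha and both delta libraries and in no beta library, and the beta 2 value came from a separate region 953 bases downstream (chr8:84661572-84661899). That region ran the other way against alpha cells, being called in beta 1 at 25897, beta 2 at 18896 and delta 1 at 44979, and in no alpha library, with the beta 1 peak farther than 1 kb from the start. A further region 1.06 kb upstream of Ier2 was nevertheless open in 6 libraries, at 28557 and 10563 in alpha, 24524 and 12347 in beta 2 and beta 3, and 14406 and 9706 in delta libraries.

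Merging overlapping peaks across the 7 lists gave 121 regions present in at least 2 libraries in the windows, of 133698 in the genome. Of these 33 were called in all 7 libraries (27.3%), against 13.3% genome-wide, and without beta 1 the values were 36 of 104 regions in all 6 and 20.6%. The windows were rich in promoters, with 59 of 121 regions within 3 kb of a coding transcript start (48.8%), against 19.8% of all regions. Among such regions 35.6% in the windows and 37.1% in the genome were shared by all 7, whereas among those farther away the shares were 19.4% and 7.41%. By position 26 of the 59 lay at the followed gene and 33 at a neighbour.

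**Figure D2:**
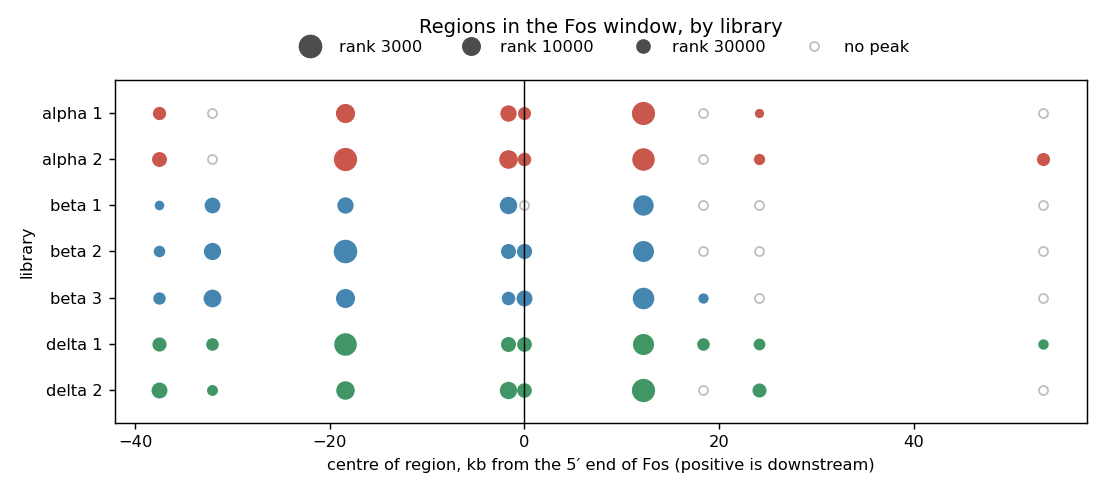
Regions of the Fos window found in at least 2 libraries, placed by the distance of their centre from the 5′ end in kb, with 1 row for each library, larger discs for higher ranks (log scale) and open grey circles for no peak. The regions at -18.5 and 12.2 kb carry large discs in all 7 rows, and the region at -32.1 kb is empty in both alpha rows.

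Distal regions shared by all libraries numbered 12, of which Fosb had 4 and Fos 3. By the median rank, the strongest region of the Fos window was not the start site but the one 12.2 kb downstream (chr12:85485755-85486393). It ranked 2178 and 2551 in alpha, 4374, 3770 and 3257 in beta, and 3648 and 2140 in delta libraries. All values fell in a narrow range, and its central 300 bases, printed above, held a CArG box and 3 TGACG matches. At -18.5 kb (chr12:85455046-85455829) the ranks were 5930 and 2139 in alpha, 12392, 1969 and 6125 in beta, and 2508 and 7056 in delta libraries. The region at -37.5 kb was weaker, between 13575 and 67906. By the median rank over libraries, Nr4a1 also had its strongest region outside its start sites, at -7.74 kb (chr15:101246213-101246852), with 5615 and 5518 in alpha, 8865, 9336 and 12497 in beta, and 6302 and 7823 in delta libraries. The 3 beta values were the weakest here, and in both delta libraries the RefSeq start was stronger than this region. For Jun a distal region 28.5 kb downstream (chr4:95023387-95024115) ranked 4129 and 8842 in alpha, 5321, 4406 and 4353 in beta, and 5298 and 8739 in delta libraries.

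Of the 10 windows, 4 had their strongest region at a start of a neighbour, namely Fosb (Ercc1, a DNA repair gene), Junb (Rnaseh2a, a subunit of ribonuclease H2), Npas4 (Slc29a2, a nucleoside transporter) and Ier2 (Cacna1a, a calcium channel subunit). At Fosl2, Jun, Egr1 and Atf3 it was a start of the gene itself. Over the central 300 bases of each region, TGACG was found in 32 of the 121 (26.4%) against 13.0% of all regions, the CArG box in 7 (5.79%) against 1.57%, TGANTCA in 18 (14.9%) against 17.2%, and TGACGTCA in 2 (1.65%) against 0.631%. The 7 regions with a CArG box were near Fos, Fosb, Jun, Junb (2 regions), Egr1 and Npas4. The 2 with TGACGTCA were the Ier2 start and a region at -9.99 kb of Egr1, both open in alpha and delta and not in beta libraries. These shares were not matched for promoters, of which the windows held more.

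A region was counted as setting a pair of cell types apart where 2 or more libraries of the first had a peak and the second had none. Between alpha and beta cells, 8 of the 121 regions were open in alpha and not beta (5.41% of all regions) and 12 in beta and not alpha (14.8%). Between alpha and delta cells there were 1 open in alpha (5.38%) and 5 open in delta (5.13%), so 6 in all. The 6 were lost at a -log10 q of 2 or in the 50000 strongest peaks, where both directions were at 0, and with 1 library left out the total was 8 to 17. Between beta and delta cells 7 were open in beta (13.2%) and 11 in delta (4.85%). As shares of the windows these were 6.61% and 9.92%, 0.826% and 4.13%, and 5.79% and 9.09%. Delta over beta was the only direction in which the windows exceeded the genome by more than 1.5 times, whereas alpha over delta and beta over delta fell short of it by as much. The counts of both beta directions fell when beta 1 or beta 3 was left out, and the delta excess did not hold in several other settings. It was under 1.5 times in some, and in the 50000 strongest peaks and within lane 7 the share in the windows was below that of the genome. The count came to 11 of 112 regions without delta 2 (8.32% of all regions), 10 of 110 with peaks that covered at least 0.5 of the region (7.36%), and 7 of 84 in the 50000 strongest peaks (10.9%). Without beta 1, 11 of 104 regions were open in alpha and not beta (15.9% of all regions) and 2 in beta and not alpha (3.95%), while 16 were open in delta and not beta (13.6%) and 0 in beta and not delta (2.85%). Without beta 3, 10 of 112 were open in alpha (7.50%) and 2 in beta (8.36%), and between beta and delta cells 1 was open in beta (7.20%) and 13 in delta (6.94%). Where a -log10 q of 2 was required of every peak, the split of 79 regions was 12 for alpha and 2 for beta (14.9% and 5.63% of all regions), and 11 for delta and 1 for beta (13.5% and 4.15%), so that the windows no longer exceeded the genome for delta over beta by 1.5 times or more. Within lane 7, delta 1 and delta 2 against beta 2 and beta 3 gave 16 of 92 regions open in delta (19.3% of all) and 0 in beta (4.06%). Within lane 6, 15 of 80 were open in alpha 1 and alpha 2 and not in beta 1 (15.3% of all), where 2 libraries were still asked for, so that the 1 beta library could give no count in the other direction.

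**Figure D3:**
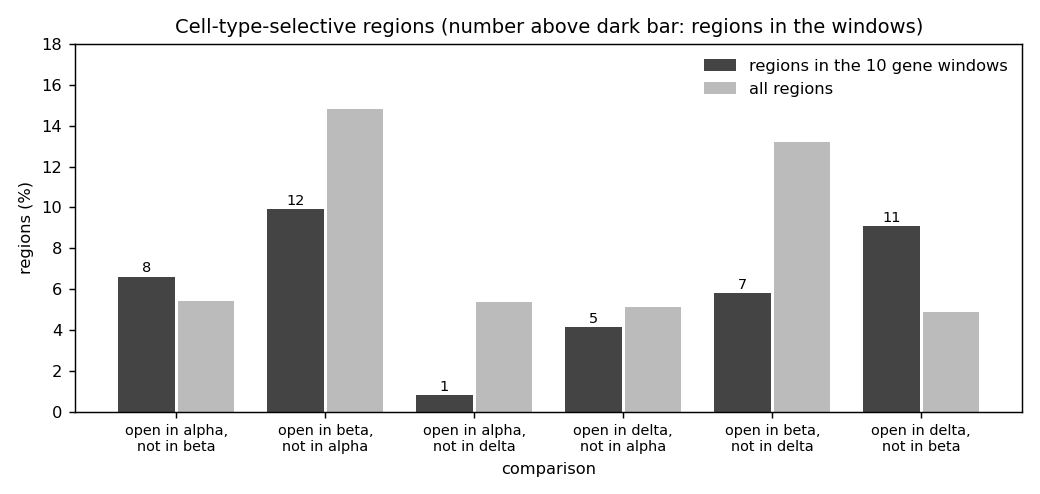
Share of regions, in percent, with a peak in 2 or more libraries of a first cell type and no peak in a second, for the 121 regions of the 10 windows (dark bars, with their number) and for all 133698 regions (light bars). The bars for open in delta and not beta stand at 9.09% and 4.85%.

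The most frequent pattern over 3 cell types was open in alpha and delta and closed in beta cells, at 6 of 121 regions (4.96%), against 1.43% of all regions. Without beta 1 it was 8 of 104 (7.69%) against 5.08%. The 6 were the Ier2 start, a region at -1.47 kb of Junb, another 9.21 kb downstream of Junb, 2 regions of Egr1 and 1 of Fos. At Junb -1.47 kb (chr8:84979896-84980480) the ranks were 29208 and 36754 in alpha and 133405 and 22237 in delta libraries. The Egr1 region 41.0 kb downstream ranked 38815 and 44629 in alpha and 34962 and 49165 in delta libraries, and that at -9.99 kb 130472 and 34136, and 29424 and 57585. At Fos, 24.1 kb downstream (chr12:85497796-85498228), the values were 75506 and 44629 in alpha, and 39713 and 22058 in delta libraries.

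In the opposite direction a single region of the windows was open in beta and delta and closed in alpha cells (1.41% of all regions), the Fos region at -32.1 kb (chr12:85441617-85442022). It ranked 14331, 9789 and 8496 in the beta libraries and 32073 and 49165 in the delta libraries, so every beta peak ranked ahead of every delta peak. By -log10 q, however, beta 1 at 3.75 was below delta 1 at 4.14. Both alpha lists had no peak there, although each had peaks at -37.5 and -18.5 kb on its sides. It kept 4 of its 5 calls at a -log10 q of 2. The pattern open in alpha and beta and closed in delta cells (0.660% of all regions) had 0 regions.

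Regions of 1 cell type made up 0.826% of the window regions for alpha, 2.48% for delta and 4.13% for beta cells. The delta share was close to that of all regions. For alpha cells there was 1 (2.42% of all regions), 37.3 kb downstream of the 5′ end of Nr4a1 (chr15:101291388-101291740), at ranks 96108 and 71012. Delta cells had 3 (2.06%), 8.37 kb downstream of Fosb at 67076 and 63256, 52.9 kb downstream of Jun at 98267 and 61489, and -9.52 kb of Egr1 at 29982 and 62280. Beta cells had 5 (10.7%), 1 each at Fosb, Fosl2, Egr1, Atf3 and Npas4, all resting on beta 1 and beta 3 together. Their beta 1 ranks were 269106 at Fosb and Npas4, 477367 at Fosl2 and Atf3, and 30342 at Egr1, and their beta 3 ranks ran from 29323 to 93800. Without beta 1 there were 0 of them.

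The number of peaks was compared over the 50000 strongest peaks of each list, so that lists of different length had the same total. The 10 windows then held 70 and 79 peaks in alpha, 57, 56 and 65 in beta, and 84 and 73 in delta libraries. All 3 beta values were below the others, and the part of read depth in this was not tested. In the same strongest peaks, the share within 3 kb of any coding transcript start was 33.6% and 36.1% in alpha, 28.1%, 27.2% and 32.4% in beta, and 35.05% and 33.6% in delta libraries, so that promoters were fewer in the beta lists throughout the genome, and the part of this in the window counts was not tested.

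**Figure D4:**
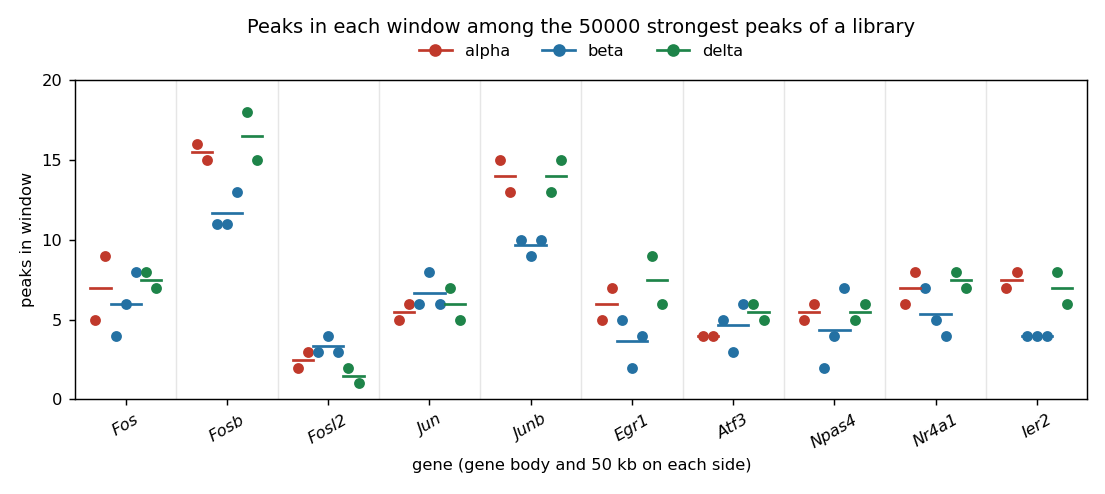
Peaks overlapping each gene body with 50 kb on each side, among the 50000 strongest peaks of a library. Points are the 7 libraries and short lines the mean of each cell type. At Junb the beta points lie at 9 and 10 and those of alpha and delta cells between 13 and 15, and at Ier2 the beta points all lie at 4 and the others between 6 and 8.

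Junb and Ier2, which lie on the same chromosome, had the lowest unadjusted p of the 10 genes in the test of peak number. The Junb window had 15 and 13 peaks in alpha, 10, 9 and 10 in beta, and 13 and 15 in delta libraries, with means of 14 ± 1.41 (SD, n = 2), 9.67 ± 0.577 (SD, n = 3) and 14 ± 1.41 (SD, n = 2). At Ier2 there were 7 and 8 in alpha, 4 in each of the 3 beta, and 8 and 6 in delta libraries. Each had an unadjusted exact permutation p of 0.0286 and an adjusted p of 0.576 over 21598 genes, of which 7.32% had an unadjusted p of at most 0.05. The unadjusted p of Junb rose above 0.05 when any 1 of the 7 libraries was left out. That of Ier2 rose above 0.05 when alpha 2 or a beta library was left out. Thus 2 of 10 members reached 0.05 with all libraries, and 0 after adjustment, as did 0 of all genes tested (1582 at an unadjusted p of at most 0.05). Fosb was close, with 16 and 15, 11, 11 and 13, and 18 and 15 peaks (exact permutation p = 0.0571). The Fos window had 5 and 9, 4, 6 and 8, and 8 and 7 peaks, with overlapping groups (exact permutation p = 0.676). The Junb and Ier2 windows were crowded with neighbours, whose promoters gave part of the peaks.

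Other immediate early genes, from a list of 28, had a peak at any transcript start in all 7 libraries in 20 cases, against 46.6% of genes, and each of the 28 had one in some library. Their median rank was 12998, against 12370 for the 10 followed genes and 21011 for all genes with such a peak. The smallest number of libraries was at Ier3, an apoptosis regulator, with beta 1 at 23995 and beta 2 at 59233 and no other. Egr4 had peaks at 25080 and 30295 in alpha, 26133 and 17371 in delta libraries, and 269106 in beta 1 only, and Fosl1 was likewise missing from beta 2 and beta 3. Klf6, a zinc finger factor, had one of the strongest start sites of the list, at 501 and 775 in alpha, 116, 119 and 203 in beta, and 447 and 481 in delta libraries. By rank all beta peaks of Klf6 were ahead of all others. Nr4a2, the closest relative of Nr4a1, ranked 5808 and 3824 in alpha, 1015, 1752 and 874 in beta, and 3479 and 3271 in delta libraries, with the beta peaks again ahead by rank. In the test of the rank at the 5′ end, 4 of the 27 tested had an unadjusted exact permutation p of at most 0.05, against 9.21% of all genes, and 0 passed adjustment.

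Upstream regulators of immediate early genes were examined in the same way. All 21 listed, among them Srf (the serum response factor), Creb1, Crem, the coactivators Crebbp and Ep300, and the kinases Mapk3, Prkaca and Camk4, had a peak at a transcript start in all 7 libraries, against 46.6% of genes, and their median rank was 8219. Prkaca, the catalytic subunit of protein kinase A, ranked 812 and 429 in alpha, 2780, 2781 and 929 in beta, and 1097 and 1774 in delta libraries. Mapk3, a MAP kinase, ranked 15450 and 10412 in alpha, 15492, 17439 and 19226 in beta, and 28407 and 28327 in delta libraries. By rank both delta peaks came last (unadjusted exact permutation p = 0.00952, adjusted p = 0.435). Of 19 regulators tested, 2 had an unadjusted p of at most 0.05, against the same 9.21%, and 0 passed adjustment.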

How the data were processed

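ATAC-Seq peak lists of 7 libraries were analysed, with cell type and replicate from the labels. The names of the 3 beta lists carry another cell type, and the labels were used. Reads were single-end. Before deposit, the authors used Trimmomatic for trimming and Bowtie 2 for alignment to GRCm38 (mm10), from which mitochondrial DNA had been left out. MACS2 then called the peaks of each library, on reads outside the blacklist whose duplicates Picard had flagged. The MACS2 parameters and any shift of reads to the transposase cut are not given in the sources used here. Each deposited peak has a fold enrichment (a ratio), a -log10 p and a -log10 q, all from its own library, and the deposited score and summit position were not used. The study's test of reads per region needs counts, which a peak list does not hold, so presence and rank of peaks were compared in its place. The lists hold no read numbers, and those the study gives elsewhere were not used here. An absent peak may lie below the limit of its library.

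Repeated intervals were counted once. Peaks were ranked by p, then fold enrichment, and peaks equal in both took their mean rank. At rank 50000 between 478 (alpha 2) and 33410 (beta 1) peaks were tied, and the 50000 strongest took tied peaks at random. Regions were merged with at least 1 bp of overlap, start sites came from GENCODE M21, and sequences from RefSeq (GRCm38.p6). Exact permutation tests used all assignments of the libraries, with Benjamini-Hochberg adjustment over all genes tested, and missing peaks or ranks over 50000 set to 50000. Replicates were labelled as biological, but animals were pooled. The study compared cells of the same animals, so beta libraries may share mice with alpha or delta libraries. Which ones do is not given in the sources used here. By the study's numbering alpha 1, beta 2 and delta 1 were female, and alpha 2, beta 1, beta 3 and delta 2 male. The permutations treated all 7 as exchangeable, without regard to sex. The text names the 10 genes, the strongest region of each window, regions of 1 cell type, and genes of the fixed lists that differ most in number of libraries. Regions shared by all libraries or by 2 cell types, Junb's and Nr4a1's second starts, and Klf6, Nr4a2, Prkaca and Mapk3 were picked after their values were seen. Members and lists were chosen with earlier results of these data known. Region merging was tested on simulated lists against bedtools 2.31.1. Python 3.11.15, numpy 2.4.6, pandas 2.3.3 and pysam 0.24.0 were used.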

Additional observations from a re-analysis of the deposited data

How the results depend on the processing

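Start-site peaks at the 5′ end were present in 82.9% of the 70 pairs of gene and library, in 71.4% once a -log10 q of 2 was required, in 72.9% among the 50000 strongest peaks, and in 92.9% both with 3 kb and with any transcript start. With a library left out it was 81.7% to 86.7%. The number of members with an adjusted exact permutation p under 0.05 was 0 in both tests under every alternative run, which says little of stability, since the smallest p possible was 0.0667 without a beta library. With the replicate block, which permutes libraries of the same number, it was 0 as well, with a smallest possible p of 0.0556. The labels tie no number to an animal or batch, and the correlation of deviations between libraries of one number was -0.0332 to 0.0127. At an unadjusted p of at most 0.05, start sites of 3 kb added Junb and Npas4 to Egr1, and in the test of peak number windows of 25 kb kept Ier2, a -log10 q of 2 gave Jun, and all peaks gave 0. With a -log10 q of 2 the Jun counts overlapped, at 5 and 6 in alpha, 5, 6 and 6 in beta, 7 and 5 in delta. Such counts do not separate the cell types, so the measure tested in this setting was not the plain count. The Jun call therefore cannot be read as a difference in peak number. Another random order of tied peaks, chosen after seeing the data, added Fosb and Fosl2 to Junb and Ier2 in the test of peak number. Selective regions varied most. Between alpha and beta cells, 20 regions became 13 in the 50000 strongest peaks and 10 with windows of 25 kb, and 12 to 28 with a library left out. Between alpha and delta cells, 6 became 0 at a -log10 q of 2 and 0 in the 50000 strongest peaks, and 8 to 17 with a library left out. Between beta and delta cells, 18 became 10 in the 50000 strongest peaks and 9 with windows of 25 kb, and 14 to 27 with a library left out. Fewer peaks or shorter windows leave fewer regions, and a cell type left with 1 library needs 1 peak.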
